A study of Mus musculus with 12 samples.

Results

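The 10 genes described here encode parts of the machinery that removes misfolded proteins from the endoplasmic reticulum (ER), together with Xbp1, a transcription factor of the ER stress response, and Creld2, an ER-resident protein with disulfide isomerase activity. They are Derl1, Derl2, Derl3, Herpud1, Edem1, Sel1l, Syvn1, Os9, Xbp1 and Creld2, chosen by name, with results of these data known, from the 32761 genes of the deposited count table, and all 10 were present and passed the filter on low counts that left 17965 genes for testing. Messenger RNA was sequenced from corneal endothelium, the cell layer lining the back of the cornea, of Col8a2 Q455K homozygous mutant mice, whose altered gene encodes a collagen VIII chain, and of wild-type mice, as a model of Fuchs endothelial corneal dystrophy (FECD). The Entrez identifiers of the 10 genes in the files are 67819, 116891, 70377, 64209, 192193, 20338, 74126, 216440, 22433 and 76737, in the order given. The 12 libraries formed 4 groups of 3 biological replicates, namely Col8a2 Q455K mutants and wild types at an early stage (at most 2 months) and Col8a2 Q455K mutants and wild types at a late stage (8 months or more). Batch 1 held the early libraries and batch 2 the late ones, so stage and batch cannot be told apart. How the mutant allele was made, the strain and any pooling of animals are not stated in the labels.

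In ER-associated degradation, misfolded proteins are picked out in the ER lumen, passed back through the membrane, marked with ubiquitin and handed to the proteasome. Edem1 trims mannose from the glycans of misfolded glycoproteins, and the lectin Os9 binds the trimmed glycans and brings their carriers to Sel1l, the adaptor of the membrane ubiquitin ligase Hrd1, which Syvn1 encodes. The derlins, Derl1, Derl2 and Derl3, are membrane proteins of the retrotranslocation path, and Herpud1 encodes Herp, a stress-induced membrane protein that helps to assemble the Hrd1 complex. Xbp1 messenger RNA is spliced by the stress sensor IRE1 into the form that encodes the active factor, and counts per gene cannot show that splicing.

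RefSeq promoter windows (build GRCm38.p6, the 250 bases before the start site) were available for 9 of the 10 genes, all but Derl1, and Derl2 had more than 1 window, making 10 windows. They were searched on both strands for the ER stress response element (ERSE: CCAAT, any 9 bases, CCACG) and for ERSE-II (ATTGG, any 1 base, CCACG), elements through which ATF6 and XBP1 are known to act. ERSE occurred in the windows of Derl3, Creld2 and Syvn1, 3 of the 9 genes, and in 37 of all 32851 windows (0.113%). ERSE-II occurred in the window of Herpud1 and in 10 of all windows (0.0304%). The 4 windows with a match are printed here 5′ to 3′ in the direction of the gene, with the bases of the element in capitals (CGTGG and ATTGG where it lies on the opposite strand), because these 4 genes differ widely in their values. The match began 156 bases before the start site in Derl3, 126 in Creld2, 44 in Syvn1 and 52 in Herpud1. The windows lie at chr10:75893148-75893397 (Derl3), chr15:88819396-88819645 (Creld2), chr19:6046326-6046575 (Syvn1) and chr8:94386179-94386428 (Herpud1), all on the plus strand.
Derl3: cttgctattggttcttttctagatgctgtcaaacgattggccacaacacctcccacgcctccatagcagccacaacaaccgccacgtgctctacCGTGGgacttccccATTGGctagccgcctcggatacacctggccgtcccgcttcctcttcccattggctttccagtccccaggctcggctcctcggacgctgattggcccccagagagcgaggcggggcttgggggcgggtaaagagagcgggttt
Creld2: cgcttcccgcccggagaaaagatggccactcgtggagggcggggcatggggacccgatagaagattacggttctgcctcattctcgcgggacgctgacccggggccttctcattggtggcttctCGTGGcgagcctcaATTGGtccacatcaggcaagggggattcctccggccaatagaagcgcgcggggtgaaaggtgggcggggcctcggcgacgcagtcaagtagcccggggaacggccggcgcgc
Syvn1: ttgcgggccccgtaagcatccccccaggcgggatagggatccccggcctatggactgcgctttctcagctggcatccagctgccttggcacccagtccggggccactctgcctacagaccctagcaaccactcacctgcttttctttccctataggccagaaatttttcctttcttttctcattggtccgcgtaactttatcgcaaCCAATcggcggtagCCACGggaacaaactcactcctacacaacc
Herpud1: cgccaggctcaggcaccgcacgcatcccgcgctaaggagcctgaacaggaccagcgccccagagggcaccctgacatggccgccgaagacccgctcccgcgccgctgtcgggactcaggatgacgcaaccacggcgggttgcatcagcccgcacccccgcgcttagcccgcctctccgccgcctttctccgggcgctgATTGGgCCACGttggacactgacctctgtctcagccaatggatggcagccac

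The shorter parts of these elements and other stress-response motifs were searched in the same windows. The part CCACG, which any ERSE or ERSE-II contains, stood in the windows of 8 of the 9 genes against 28.3% of all windows, and the part CCAAT in 8 of the 9 against 33.8%. Xbp1 was the gene without either. The UPR element core TGACGTGG was in none of the 9 and in 0.563% of all windows, and the ATF4 and C/EBP composite TGATGCAAT was in none and in 0.167%. These are matches of letters in 1 window per start site, and nothing was measured here on binding.

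Libraries held between 19722598 counts (early wild-type replicate 2) and 39431676 counts (early mutant replicate 1). Levels are given in CPM, counts relative to library size with TMM scaling between libraries, and 3 counts, the lowest amount treated as detection, equal 0.0773 to 0.132 CPM. All 12 corneal endothelial markers were present, with summed levels of 7580 to 10900 CPM in early mutants against 6290 to 8570 CPM in early wild type, and 7350 to 9800 CPM in late mutants against 4840 to 9570 CPM in late wild type. Markers of stromal keratocytes, the neighbouring cell type, summed higher, at 22300 to 25700 CPM in early mutants against 19100 to 29300 CPM in early wild type, and 21300 to 31900 CPM in late mutants against 21000 to 26500 CPM in late wild type. Dcn carried most of these sums, and 4 of the 11 keratocyte markers were called higher in mutants early, and 5 higher and 1 lower late. Among them, Kera was at 45.6, 101 and 65.4 CPM in early mutants against 18, 6.86 and 14.6 CPM in early wild type, and 89.9, 49.1 and 65.3 CPM in late mutants against 17.5, 11.2 and 11.4 CPM in late wild type. Macrophage markers were higher in mutants, at 257 to 591 CPM against 40.8 to 65.7 CPM early and 412 to 502 CPM against 43.3 to 65.6 CPM late, with 7 of 15 called early and 12 of 15 late. Trabecular meshwork markers summed to 1190 to 1740 CPM in early mutants against 531 to 1370 CPM in early wild type, which overlap, and to 1520 to 2620 CPM in late mutants against 433 to 1100 CPM in late wild type, with 2 of 6 called early and 3 late. By chi-square per degree of freedom, late wild-type replicate 1 stood apart from its group, at 235 and 237 to the other replicates against 59.1 between those. By correlation of log2 levels it did not, with r of 0.904 and 0.907 against 0.909. It held 5100 CPM of the endothelial transporter Slc4a11 against 1890 and 1830 CPM in the other replicates.

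In late mutants Derl3, Edem1 and Creld2 were called higher than in late wild type, by 11.8-fold, 2.52-fold and 1.88-fold. Xbp1 joined them when both stages were averaged, at 1.68-fold. None of the 10 genes passed the threshold early, where Derl3, Edem1 and Creld2 lay 6.82-fold, 2.23-fold and 1.73-fold higher in mutants. No change of the genotype effect between stages was called for any of the 10. Derl1, Sel1l, Os9 and Syvn1 lay 1.23-fold to 1.54-fold higher in mutants at each stage without passing the threshold. Derl2 and Herpud1 were spread so widely among wild-type libraries that no direction could be given. In bulk RNA, more cells of a type and more RNA per cell cannot be told apart.

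By edgeR's quasi-likelihood test with Benjamini-Hochberg adjustment over all 17965 genes, 0 of the 10 genes passed the threshold of 0.05 early, where 0.59% of all genes did. The count at an unadjusted p under 0.05 was 4 of 10 early, against 8.77% of all genes. Early, DESeq2 called 1 of the 10 (Derl3) and 237 of all 17965 genes, and limma-voom called 1 (Creld2) and 148. Late, 3 of 10 were called higher and 0 lower, where 2.77% of all genes were called higher, 2.71% lower and 5.47% in either direction. For the mean of both stages, 4 of 10 were called higher and 0 lower, where 4.04% of all genes were called higher, 2.81% lower and 6.85% in either direction. Log2 fold changes lay above 0 in 8 of the 10 genes early, 9 late and 9 for the mean, and in 43.1%, 50.1% and 45% of all genes. The median log2 fold change of the 10 genes was 0.52 early, 0.58 late and 0.54 for the mean, while that of all genes tested was -0.11, 0 and -0.08. The late count was 1 when late mutant replicate 1 or 3, or late wild-type replicate 2 or 3, was left out. In that order, these omissions lowered the late calls among all genes to 229, 238, 306 and 364. The late count was 5 without late wild-type replicate 1. Without late wild-type replicate 1, the early count was 1 and the count for the mean was 7. Leaving out that library also raised the calls among all genes, to 179 early against 106 with it, to 3909 late against 983, and to 3004 for the mean against 1230.

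All mutant libraries lay above all wild-type libraries in 6 of the 10 genes early (10.1% of all genes) and in 8 late (14.9%). The same 6 genes, Derl1, Derl3, Edem1, Sel1l, Xbp1 and Creld2, were separated at both stages, which held for 3.89% of all genes. None of the 10 was separated with mutants lower, where 11.8% of all genes were early and 10.9% late. Some of these separations were narrow, as the values below show.

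**Figure D1:**
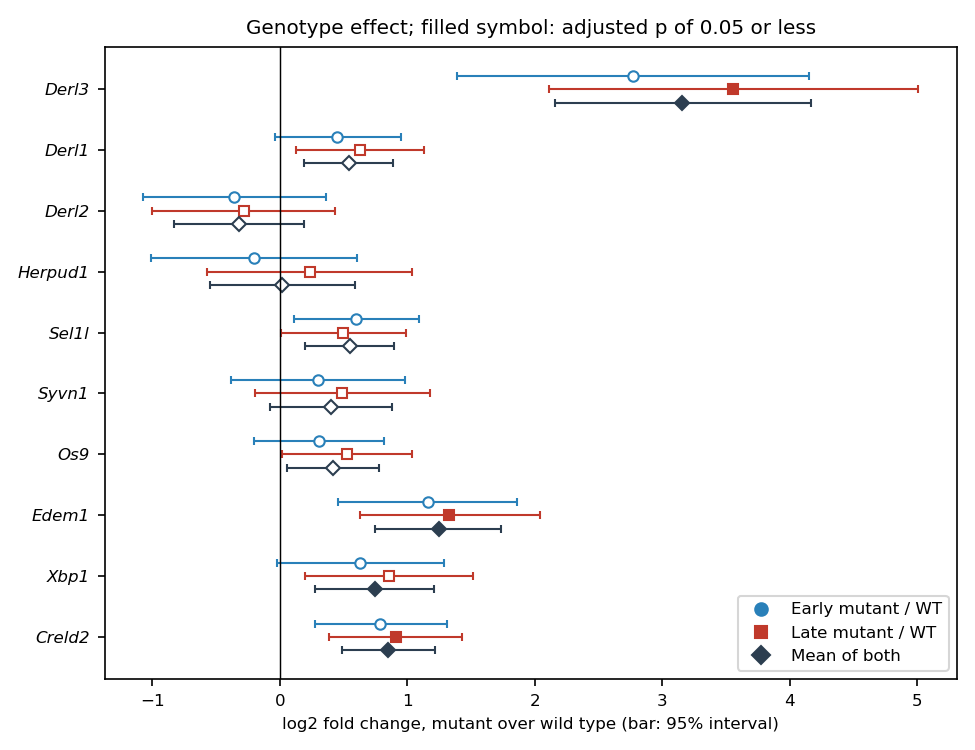
Genotype effect on each of the 10 genes, as log2 fold change of mutant over wild type (x axis) with 95% intervals, for the early stage (circles), the late stage (squares) and their mean (diamonds). Filled symbols passed the threshold, which 3 genes did late (Derl3, Edem1 and Creld2) and 4 for the mean (Xbp1 in addition).

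Derl3, the derlin with the lowest level, showed the widest gap. Its level was 9.26, 4.32 and 4.21 CPM in early mutants, against 0.0374, 1.14 and 1.39 CPM in early wild type. In late mutants it was 5.43, 6.07 and 6.02 CPM, against 0.525, 0.602 and 0.35 CPM in late wild type. Every mutant library lay above every wild-type library, early mutant replicate 1 stood above the other mutants, and early wild-type replicate 1 held 1 count, under the level taken as detection. The log2 fold change was 2.77 ± 0.66 early (SE, adjusted p = 0.07) and 3.56 ± 0.69 late (adjusted p = 0.0081), and 3.16 ± 0.48 for the mean of both stages (adjusted p = 0.00046).

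These Derl3 values rest on few reads. The late wild-type libraries held 16, 15 and 9 counts, while the late mutants held 158, 204 and 186. The late call held in all 22 alternative settings, with log2 fold changes of 3.38 to 3.74 and adjusted p up to 0.043. The early value was 3.37 on the log2 scale without early wild-type replicate 3, and 2.24 without early wild-type replicate 1, the library with 1 count. Early, Derl3 passed the threshold without a low-count filter (adjusted p = 7.2e-05) and with DESeq2 (adjusted p = 0.0015).

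Derl1, the derlin with the highest level per length in mutants, lay at 135, 128 and 118 CPM in early mutants, against 112, 94.4 and 71.9 CPM in early wild type. In late mutants it was 134, 113 and 125 CPM, against 82, 75.5 and 83.5 CPM in late wild type. The groups were separated at both stages, by a wider gap late. Its log2 fold change was 0.45 ± 0.24 early (adjusted p = 0.59), 0.63 ± 0.24 late (adjusted p = 0.11) and 0.54 ± 0.17 for the mean (adjusted p = 0.059). Without late wild-type replicate 1, Derl1 passed the threshold late (adjusted p = 0.033) and for the mean (adjusted p = 0.012). The mean also passed without early wild-type replicate 1 (adjusted p = 0.038) or late mutant replicate 2 (adjusted p = 0.048). With all 12 libraries it passed under the DESeq2 test (adjusted p = 0.018), limma-voom (0.019) and a filter at 5 CPM (0.041). It was called in 7 of 21 alternatives.

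Derl2 differed from the other derlins in that its groups overlapped at both stages. Early mutants held 76.1, 99.5 and 91.1 CPM, against 172, 77.4 and 92.2 CPM in early wild type. Late mutants held 102, 80.8 and 88.7 CPM, against 53.7, 147 and 130 CPM in late wild type. Mutants lay inside the wild-type range late and nearly so early, and the high wild-type libraries were early replicate 1 and late replicates 2 and 3. On the log2 scale the change was -0.36 ± 0.34 early (95% interval -1.07 to 0.36, adjusted p = 0.71) and -0.28 ± 0.34 late (95% interval -1 to 0.43, adjusted p = 0.61). Without early wild-type replicate 1 the early value was 0.09. The exons of Derl2 overlap those of Mis12 on the opposite strand in a GENCODE annotation of an older build than that of the counts. The labels do not say whether reads were counted by strand, so the level of Derl2 is uncertain.

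On a per-length scale (FPKM), the derlins could be set against each other within a library. Derl3 made up 10.2%, 4.75% and 5.03% of the summed derlin FPKM in early mutants, against 0.0365%, 1.73% and 2.26% in early wild type. In late mutants its share was 5.72%, 7.57% and 6.88%, against 0.996%, 0.757% and 0.452% in late wild type. The share was thus higher in each mutant library than in any wild-type library, and Derl3 remained the least abundant derlin throughout. The ratio of Derl1 to Derl2 FPKM was 2.38, 1.73 and 1.74 in early mutants, against 0.875, 1.64 and 1.05 in early wild type. Late it was 1.77, 1.88 and 1.89 in mutants, against 2.05, 0.692 and 0.861 in wild type, so that late wild-type replicate 1 lay above the mutants and the groups overlapped.

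**Figure D2:**
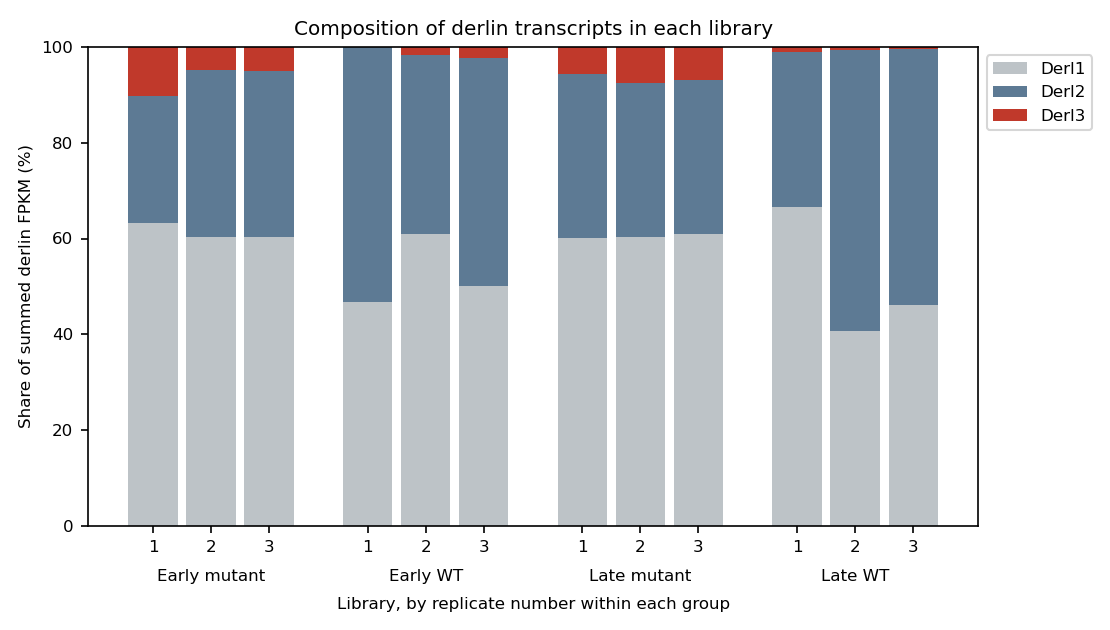
Share of each derlin in the summed derlin FPKM (y axis, percent) of each of the 12 libraries (x axis, replicates within 4 groups). The Derl3 segment is 4.75% to 10.2% in mutant libraries and at most 2.26% in wild-type libraries, and the Derl1 and Derl2 segments are more even among mutants than among wild types.

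Edem1, the mannosidase-like factor that marks glycoproteins for removal, followed Derl3 in size of effect. Its level was 34, 16.4 and 30.5 CPM in early mutants, against 6.63, 13.5 and 16.1 CPM in early wild type. In late mutants it was 29.8, 25.4 and 29.1 CPM, against 10.9, 13.3 and 9.29 CPM in late wild type. The early groups were only just separated, by early mutant replicate 2 and wild-type replicate 3, while the late groups were well apart. Edem1 had a log2 fold change of 1.16 ± 0.33 early (adjusted p = 0.21), 1.33 ± 0.34 late (adjusted p = 0.029) and 1.25 ± 0.24 for the mean (adjusted p = 0.0034). The late call was lost without late mutant replicate 1 (adjusted p = 0.09) or 3 (adjusted p = 0.077) and without late wild-type replicate 2 (adjusted p = 0.063) or 3 (adjusted p = 0.1), and the mean was called in all 21 alternatives.

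Os9, the lectin that reads the trimmed glycan, moved less. Early mutants held 192, 160 and 177 CPM, against 178, 142 and 108 CPM in early wild type. Late mutants held 177, 166 and 178 CPM, against 134, 119 and 107 CPM in late wild type. The groups overlapped early through wild-type replicate 1 and were separated late. For Os9 the log2 fold change was 0.31 ± 0.24 early (adjusted p = 0.67) and 0.53 ± 0.24 late (adjusted p = 0.16), and 0.42 ± 0.17 for the mean (adjusted p = 0.15). Without late wild-type replicate 1 it passed late (adjusted p = 0.037) and for the mean (adjusted p = 0.027). With limma-voom on all 12 libraries the mean also passed (adjusted p = 0.035). The mean was called in 3 of 21 alternatives.

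Sel1l, the adaptor of the Hrd1 ligase, had among the tightest groups early, while its late mutants were spread more widely. Its level was 183, 189 and 189 CPM in early mutants, against 115, 124 and 132 CPM in early wild type. Late it was 197, 143 and 186 CPM in mutants, against 118, 142 and 110 CPM in wild type. The early groups were far apart for their spread, and the late ones met at late mutant replicate 2 and late wild-type replicate 2. Sel1l had a log2 fold change of 0.6 ± 0.23 early (adjusted p = 0.47), 0.5 ± 0.23 late (adjusted p = 0.17) and 0.55 ± 0.17 for the mean (adjusted p = 0.051). The mean passed without late mutant replicate 2 (adjusted p = 0.028) or late wild-type replicate 1 (adjusted p = 0.013). With all 12 libraries it passed under the DESeq2 test (adjusted p = 0.016), limma-voom (0.018) and a filter at 5 CPM (0.042). It was called in 6 of 21 alternatives.

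Syvn1, which encodes the Hrd1 ligase itself, was among the least abundant of the 10. Early mutants held 17, 10.4 and 12.9 CPM, against 6.59, 10.2 and 15.9 CPM in early wild type. Late mutants held 13.1, 14.9 and 11.6 CPM, against 10.8, 7.78 and 9.6 CPM in late wild type. The early groups overlapped through wild-type replicate 3, and the late groups did not overlap. The log2 fold change was 0.3 ± 0.32 early (adjusted p = 0.74) and 0.49 ± 0.33 late (adjusted p = 0.33), so the ligase and its adaptor both lay higher in mutants without a call. The exons of Syvn1 overlap those of Mrpl49 on the opposite strand in the same GENCODE annotation. This makes the level of Syvn1 uncertain in the same way as that of Derl2.

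Herpud1 had no stable direction. Its level was 379, 393 and 397 CPM in early mutants, against 759, 246 and 338 CPM in early wild type. In late mutants it was 584, 404 and 478 CPM, against 207, 646 and 390 CPM in late wild type. The early mutants stood close together inside the wild-type range, and the highest and lowest libraries of both stages were wild type. The log2 fold change was -0.2 ± 0.39 early (95% interval -1.01 to 0.61, adjusted p = 0.85) and 0.24 ± 0.39 late (95% interval -0.57 to 1.04, adjusted p = 0.72). For the mean of both stages it was 0.02 ± 0.27 (95% interval -0.55 to 0.59, adjusted p = 0.97), so changes of about 1.5-fold in either direction lay within or near the interval. Without early wild-type replicate 1 the early value was 0.43, and without late wild-type replicate 1 the mean was -0.06.

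Xbp1 was higher in mutants at both stages. Early mutants held 191, 177 and 170 CPM, against 152, 112 and 84.1 CPM in early wild type. Late mutants held 244, 128 and 164 CPM, against 59, 124 and 113 CPM in late wild type. The groups did not overlap at either stage, but late mutant replicate 2 was close to late wild-type replicate 2, and late mutant replicate 1 and late wild-type replicate 1 stood at the extremes. For Xbp1 the log2 fold change was 0.63 ± 0.31 early (adjusted p = 0.58), 0.86 ± 0.31 late (adjusted p = 0.096) and 0.75 ± 0.22 for the mean (adjusted p = 0.049).

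The Xbp1 call for the mean held in 11 of 21 alternatives, with adjusted p of 0.0055 to 0.14. It was lost without early mutant replicate 1 (adjusted p = 0.12), 2 (adjusted p = 0.051) or 3 (adjusted p = 0.088). The same held without early wild-type replicate 3 (adjusted p = 0.11), late mutant replicate 1 (adjusted p = 0.14) or late wild-type replicate 3 (adjusted p = 0.062). It was also lost with DESeq2 size factors (0.067), a replicate block (0.093), protein-coding genes alone (0.066) and an offset for gene length (0.097). All of these values kept mutants higher, with log2 fold changes of 0.61 to 0.92.

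Creld2, known as a gene induced by ER stress in mouse cells, was higher in every mutant library. These held 294, 276 and 282 CPM early, against 178, 147 and 166 CPM in early wild type. Late they held 294, 253 and 256 CPM, against 101, 176 and 150 CPM in late wild type. Each mutant library was well above all wild-type libraries of its stage. Creld2 had log2 fold changes of 0.79 ± 0.25 early (adjusted p = 0.26), 0.91 ± 0.25 late (adjusted p = 0.038) and 0.85 ± 0.18 for the mean (adjusted p = 0.006).

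The late call of Creld2 was made in 13 of 22 alternatives and its mean effect in 21 of 21. The late call was lost without early mutant replicate 1 (adjusted p = 0.061) or 3 (adjusted p = 0.067), late mutant replicate 1 (adjusted p = 0.13) or 3 (adjusted p = 0.074), or late wild-type replicate 2 (adjusted p = 0.057) or 3 (adjusted p = 0.088). Early, Creld2 passed without late wild-type replicate 1 (adjusted p = 0.048), a library that enters the early test through the shared estimate of spread.

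**Figure D3:**
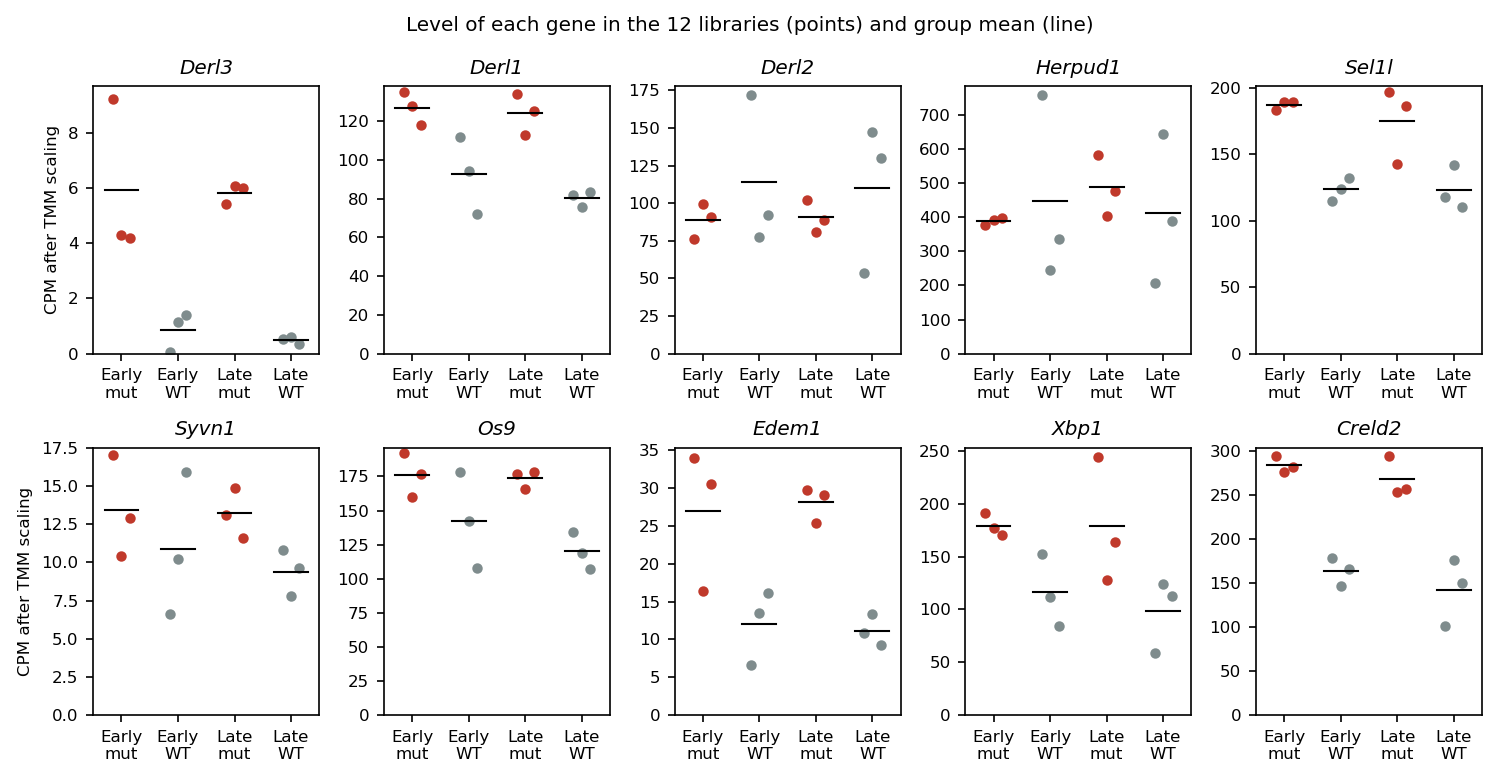
Level of each of the 10 genes (y axis, CPM after TMM scaling, from 0) in each library (points) with the mean of each group of 3 (lines), mutant left of wild type at each stage. Derl3 shows the widest gap, at 4.21 to 9.26 CPM in early mutants against at most 1.39 CPM in early wild type, and Derl2 and Herpud1 show wild-type libraries above all mutants at each stage.

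The genotype effect was not shown to change between stages for any of the 10 genes. The edgeR test of the difference between the late and early effects called 0 of 10, where 0.00557% of all genes were called, none of the 10 had an unadjusted p under 0.05 (11.2% of all genes did), and DESeq2 and limma-voom also called 0. The difference in log2 fold change, late minus early, ran from -0.09 ± 0.33 for Sel1l to 0.79 ± 0.9 for Derl3 (95% interval -1.1 to 2.68). It was 0.12 ± 0.35 for Creld2, 0.18 ± 0.47 for Edem1 and 0.23 ± 0.44 for Xbp1. The intervals are wide, and each holds both a larger and a smaller effect late. For Derl3, whose effect was 6.82-fold early and 11.8-fold late, the mutant mean was 5.93 CPM early and 5.84 CPM late, and the wild-type mean 0.857 CPM early and 0.492 CPM late.

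Within mutants, late and early levels of the 10 genes lay close together. The log2 fold change of late over early ran from -0.09 (Sel1l and Creld2) to 0.33 (Herpud1) in mutants. In wild type it ran from -0.81 ± 0.68 (Derl3) to 0 (Sel1l), with all others between. It lay above 0 in 3 of the 10 genes in mutants (53.6% of all genes) and in 0 of the 10 in wild type (55.9% of all genes). By edgeR 0 of the 10 genes were called in either genotype, where 0% of all genes were called. None of the 10 had an unadjusted p under 0.05, which 6.53% of all genes had in mutants and 4.03% in wild type. DESeq2 and limma-voom called 0 of the 10 as well. Of all 17965 genes, DESeq2 called 13 in mutants and 1 in wild type, and limma-voom 299 and 0. Stage and batch cannot be told apart in these values.

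Per length, the 10 genes fell by their means into a high, a middle and a low group in all 4 conditions. In late mutants Herpud1 averaged 254 ± 21.2 FPKM, Creld2 209 ± 15.1 FPKM and Xbp1 83.2 ± 19.5 FPKM (SD, n = 3). Derl1 (42 ± 1.32 FPKM), Os9 (34.8 ± 2.73), Sel1l (29.5 ± 1.78) and Derl2 (22.8 ± 0.839) formed the middle, each separated from its neighbours in all 3 libraries. Edem1 (5.07 ± 0.157 FPKM), Derl3 (4.68 ± 0.769) and Syvn1 (3.88 ± 0.897) were lowest and overlapped one another.

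In late wild type the means kept these groups, with less order inside them and with the lowest Xbp1 library inside the middle group. Herpud1 averaged 188 ± 82 FPKM, Creld2 98.3 ± 15.5 FPKM and Xbp1 40.9 ± 10.6 FPKM, and the ranges of Herpud1 and Creld2 just met. Derl1 (24.6 ± 3.89 FPKM), Derl2 (24.2 ± 8.91), Os9 (21.8 ± 4.98) and Sel1l (18.8 ± 2.25) could not be ordered beyond their spread, apart from Derl1 over Sel1l. Syvn1 (2.49 ± 0.688 FPKM) and Edem1 (1.81 ± 0.303) overlapped, and Derl3 (0.352 ± 0.0977) lay below both. Derl3 and Edem1 therefore sat beside Syvn1 in mutants, while in late wild type Derl3 was separated from it.

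Early, Creld2 (198 ± 4.72 FPKM) stood just above Herpud1 (182 ± 9.36) in mutants, against 123 ± 13.5 FPKM for Creld2 and 212 ± 89.5 FPKM for Herpud1 in wild type. Xbp1 averaged 75.8 ± 4.73 FPKM in early mutants and 51.9 ± 8.76 FPKM in early wild type. Edem1, Derl3 and Syvn1 averaged 4.3 ± 1.36, 4.16 ± 1.94 and 3.45 ± 0.759 FPKM in early mutants and overlapped there. In early wild type Syvn1 averaged 3.17 ± 1.67, Edem1 2.21 ± 1.12 and Derl3 0.72 ± 0.61 FPKM, and each overlapped the next.

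The libraries also showed which of the 10 genes varied together, here as correlations of log2 CPM across 12 libraries that share scaling and depth, given as a description. Derl2 and Herpud1 had r = 0.84 over the 12 libraries and 0.94 after the group means were removed. Both were high in 1 early and 1 late wild-type library, replicates 1 and 2 of those groups, and lowest in late wild-type replicate 1. Derl3 and Edem1 had r = 0.96, and 0.82 within groups, and Derl1 and Os9 had r = 0.93, and 0.81 within groups. Xbp1 was closest to Creld2, with r = 0.89, and 0.8 within groups, while within groups it also followed Derl2 (0.81) and Herpud1 (0.79). Derl3 and Syvn1 ran against Derl2 and Herpud1 within groups, with r of -0.64 to -0.61.

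**Figure D4:**
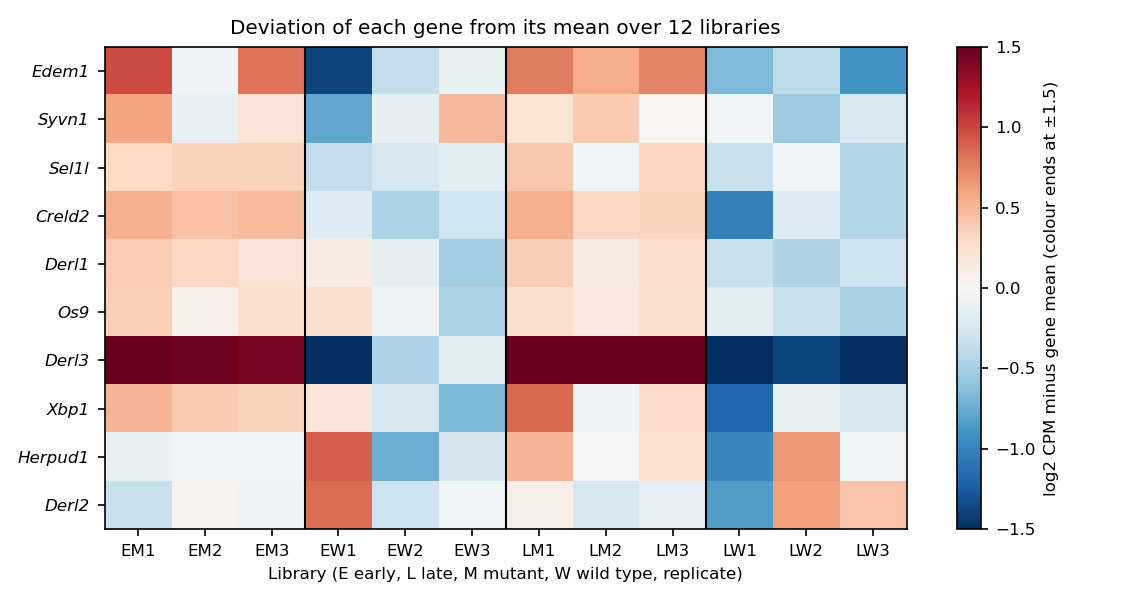
Deviation of each gene (rows) from its own mean over the 12 libraries (columns, mutant left of wild type at each stage), as log2 CPM with colours ending at 1.5 in either direction. Most rows are red in the mutants and blue in the wild types, while Herpud1 and Derl2 are red in replicate 1 of the early wild types (EW1) and in LW2, and blue in LW1.

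Among the 9457 other genes of at least 5 CPM, those whose log2 CPM correlated most with the mean of the 10 standardised genes over the 12 libraries were H2-K1 (r = 0.984), Prss23 (0.981), Ctsh (0.98), Dnajb9 (0.977) and Dap (0.972). Their correlations within groups were 0.85 to 0.95. For Xbp1 alone they were Serpinf1 (r = 0.985, and 0.97 within groups), Mff (0.96), Edem2 (0.959), Surf4 (0.957) and Plk2 (0.955). With Spearman in place of Pearson correlation, only Prss23 and Serpinf1 stayed in their lists of 5.

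Other genes of ER-associated degradation were counted in 3 further lists, chosen by function. Of their 61 genes 60 were tested, and 1 was called higher early (0.557% of all genes), 2 higher and 2 lower late (2.77% and 2.71% of all genes), and 6 higher for the mean of both stages (4.04% of all genes). DESeq2 called 1 early and 6 late, and limma-voom 2 early and 8 late. Among all 17965 genes DESeq2 called 237 early and 2478 late, and limma-voom 148 early and 1728 late. Their median log2 fold change was 0.22 early and 0.31 late, with 44 and 37 of 60 above 0. At an unadjusted p under 0.05 the counts were 6 of 60 early and 18 of 60 late, near the shares of all genes, 8.77% and 28.1%. Whether these lists differ from the 10 genes was not tested.

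Among 13 genes of substrate selection, Dnajb9, which encodes the ER chaperone ERdj4, was called at both stages. It averaged 62 ± 7.91 CPM in early mutants against 24 ± 4.36 CPM in early wild type (2.59-fold, adjusted p = 0.039), and 59.7 ± 14.2 CPM in late mutants against 20.6 ± 7.52 CPM in late wild type (2.9-fold, adjusted p = 0.0082). The late call held in all 22 alternatives. The early one was lost with DESeq2 size factors (adjusted p = 0.06) and on leaving out any of the 6 early libraries, with adjusted p of 0.1, 0.077 and 0.16 without early mutant replicates 1, 2 and 3 and of 0.056, 0.15 and 0.17 without early wild-type replicates 1, 2 and 3. Sdf2l1, an ER chaperone cofactor, was 2-fold higher early (adjusted p = 0.31), Txndc11 1.89-fold higher late (adjusted p = 0.1) and the reductase Dnajc10 1.5-fold higher late (adjusted p = 0.15). Bcap31 lay the other way late, at 461 ± 67.8 CPM in mutants against 744 ± 288 CPM in wild type (adjusted p = 0.18).

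Among 18 other ligases and ubiquitin-conjugating enzymes of the ER, 1 was called higher and 1 lower late. Ube2g2, the conjugating enzyme that works with the ER ligase gp78, averaged 70 ± 17.7 CPM in late mutants against 28.8 ± 8.09 CPM in late wild type (2.43-fold, adjusted p = 0.023). Its call was lost without late mutant replicate 1 (adjusted p = 0.11) or 3 (0.054), without late wild-type replicate 2 (0.098) or 3 (0.08), and with an offset for gene length (0.05 after rounding). Rnf145, a ligase of the sterol pathway, averaged 66.5 ± 21.6 CPM in late mutants against 154 ± 45.6 CPM in late wild type (log2 fold change -1.21 ± 0.3, adjusted p = 0.027). Early it lay the other way, at 153 ± 24.5 CPM in mutants against 81.2 ± 15.6 CPM in wild type (adjusted p = 0.3), and the edgeR test of the difference gave an adjusted p of 0.094. The Rnf145 call was lost without late mutant replicate 1 (adjusted p = 0.12) or 3 (0.076) or late wild-type replicate 3 (0.11), and in a fit of the late libraries alone (0.062). Rnf5 (log2 fold change -0.69 ± 0.27), Trim13 (0.82 ± 0.36) and, early, Rnf103 (1.07 ± 0.37) did not pass.

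Among 29 genes of extraction from the membrane and delivery to the proteasome, 1 was called late. Tmub1, a membrane protein of that path, averaged 28.7 ± 0.932 CPM in late mutants against 56.8 ± 7.25 CPM in late wild type (log2 fold change -0.98 ± 0.24, adjusted p = 0.024). Its call was lost without early mutant replicate 2 (adjusted p = 0.057), any late mutant (replicate 1, 0.083, replicate 2, 0.088, replicate 3, 0.13) or late wild-type replicate 2 (0.08) or 3 (0.077), with no low-count filter (0.056) and in a fit of the late libraries alone (0.078). Vcp, which encodes the p97 ATPase that pulls substrates from the membrane, averaged 290 ± 10.3 CPM in late mutants against 183 ± 18.6 CPM in late wild type (1.58-fold, adjusted p = 0.093), and passed for the mean of both stages (adjusted p = 0.049). Yod1, a deubiquitinase that works with p97, was 2.69-fold higher late (adjusted p = 0.093) and Faf1, a p97 cofactor, 1.82-fold (adjusted p = 0.11).

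Of 14 genes of the stress sensors and their transcription factors, 12 were tested and 2 were called higher late, where DESeq2 called 3 and limma-voom 2. Of all genes, edgeR called 2.77% higher late. In either direction DESeq2 called 2478 and limma-voom 1728 of 17965 late. Atf4, the factor translated when PERK is active, averaged 88.3 ± 6.78 CPM in late mutants against 36.5 ± 8.09 CPM in late wild type (2.42-fold, adjusted p = 0.013). Ddit3, its target CHOP, averaged 95.7 ± 5.94 CPM in late mutants against 48.4 ± 9.56 CPM in late wild type (1.98-fold, adjusted p = 0.036). Early, none of the 12 was called by edgeR, DESeq2 or limma-voom. At an unadjusted p under 0.05 there were 2, Creb3l2 at 1.99-fold (adjusted p = 0.3) and Ddit3 at 1.55-fold (adjusted p = 0.51). Such a p was found early in 8.77% of all genes, and edgeR called 0.59%, DESeq2 237 genes and limma-voom 148. The Atf4 call was lost without late mutant replicate 1 (adjusted p = 0.058), late wild-type replicate 2 (0.061) or late wild-type replicate 3 (0.06). The Ddit3 call was lost without early mutant replicate 1 (0.052) or 3 (0.06), late mutant replicate 1 (0.11) or 3 (0.084), or late wild-type replicate 2 (0.091) or 3 (0.064), in a fit of the late libraries alone (0.088) and with the length offset (0.1). Creb3l1 (2.57-fold, adjusted p = 0.051) and Eif2ak3, which encodes PERK (1.84-fold, adjusted p = 0.16), did not pass late.

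Of 28 genes of translocation into the ER and export from it, 2 were called higher late, both of the translocon-associated TRAP complex. DESeq2 called 7 of the 28 late and limma-voom 5. Of all 17965 genes, edgeR called 2.77% higher late, and in either direction DESeq2 called 2478 and limma-voom 1728. Ssr1 averaged 124 ± 22.1 CPM in late mutants against 47.5 ± 18.3 CPM in late wild type (2.62-fold, adjusted p = 0.028). Ssr3 averaged 196 ± 69.6 CPM in late mutants against 93.7 ± 20.2 CPM in late wild type (2.09-fold, adjusted p = 0.033). The Ssr1 call was lost without late mutant replicate 1 (adjusted p = 0.1) or 3 (0.056) or late wild-type replicate 3 (0.11), and with the length offset (0.056). The Ssr3 call was lost without early mutant replicate 1 (0.051) or 3 (0.055), late mutant replicate 1 (0.16) or 3 (0.089), or late wild-type replicate 2 or 3 (0.11 each), in a fit of the late libraries alone (0.09) and with the length offset (0.075). Sec61a1, the channel subunit of the translocon, was 1.85-fold higher late and lay just over the threshold (adjusted p = 0.05 after rounding), and Wfs1 was 1.87-fold higher (adjusted p = 0.074). Early, none of the 28 was called by edgeR, DESeq2 or limma-voom and 4 had an unadjusted p under 0.05. Among these, Sec61a1 was at 1.65-fold (adjusted p = 0.4) and Srpr, a receptor of the signal recognition particle, at 1.5-fold (adjusted p = 0.47). Such a p was found early in 8.77% of all genes, and edgeR called 0.59%, DESeq2 237 genes and limma-voom 148.

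**Figure D5:**
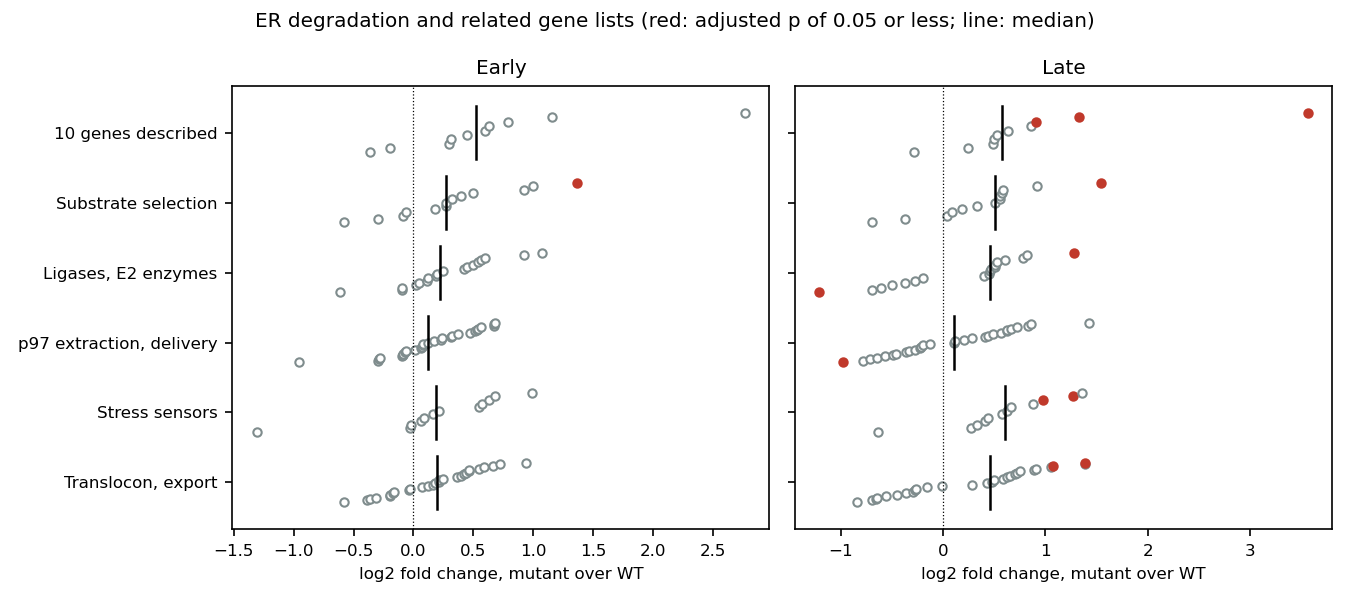
Log2 fold change of mutant over wild type (x axis) for each tested gene (points) of the 10 genes described and of 5 lists of related function (rows), early and late, with the list median as a line and called genes in red. The median of the 10 genes was 0.52 early and 0.58 late. The related lists held 60 tested genes of ER-associated degradation, 12 of the stress sensors and 28 of translocation and export. Of these genes 1 was called early and 8 were called late, 2 of them lower. Of all genes, 0.59% were called early and 5.47% late.

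Plasma cells, known for high levels of Xbp1 and of the genes it drives, were checked by their markers. Of 12 plasma cell and B cell markers 10 were in the table, all but the immunoglobulin genes Ighm and Igkc, which could not be checked. Of the 10, 6 (Jchain, Mzb1, Tnfrsf17, Irf4, Cd79a and Cd79b) stayed under 1 CPM in every library. With Sdc1, which other cell types also express, the list summed to 32.4 to 47.5 CPM in early mutants against 16.5 to 30.3 CPM in early wild type, and to 36 to 40 CPM in late mutants against 16.9 to 28.5 CPM in late wild type, so that it moved with the genotype. Sdc1 carried most of that sum, at 46.4, 38.5 and 31.3 CPM in early mutants against 15.5, 25.7 and 15.9 CPM in early wild type, and 33.9, 38.1 and 34.2 CPM in late mutants against 26.5, 15.2 and 19.9 CPM in late wild type. Without Sdc1, the 9 remaining markers reached 1.08 to 1.58 CPM in early mutants against 0.973 to 4.66 CPM in early wild type, and 1.9 to 2.4 CPM in late mutants against 1.65 to 2.14 CPM in late wild type. Macrophage markers and several keratocyte and trabecular meshwork markers, given above, moved with the genotype, as did Sdc1. The trabecular sums overlapped early, where 2 of 6 were called. The part of these markers in the results for the 10 genes was not tested. Nor was that of photoreceptor markers, at 182 to 365 CPM in early mutants against 35.4 to 77.9 CPM in early wild type, and 110 to 323 CPM in late mutants against 80.5 to 122 CPM in late wild type, or of melanocyte markers, at 95.6 to 235 CPM in early mutants against 36.4 to 51.9 CPM in early wild type, and 87.6 to 124 CPM in late mutants against 18.7 to 133 CPM in late wild type. Of 11 photoreceptor markers, 4 were called higher early, 1 late and 9 for the mean of both stages. Of 8 melanocyte markers, 0 were called early, 0 late and 1 for the mean. Lens markers summed to 108 to 206 CPM in early mutants against 142 to 609 CPM in early wild type. In late mutants they summed to 246 to 359 CPM against 98.1 to 168 CPM in late wild type, with 2 of 8 tested called higher. The part of lens markers was not tested either. Epithelial markers summed to 27.8 to 300 CPM in early mutants against 18.8 to 81.4 CPM in early wild type. Late they summed to 32.5 to 137 CPM in mutants against 13 to 320 CPM in wild type, with 0 of 9 called at either stage. Of the 12 endothelial markers, 0 were called early, 1 higher late and 3 higher for the mean. The part of the epithelial and endothelial markers was not tested.

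In the authors' deposited table of their own early comparison, Derl3 had a fold change of 6.68 (q = 0.038) and Creld2 of 1.68 (q = 0.0038), while Edem1 (2.17, q = 0.14), Sel1l (1.47, q = 0.068) and Xbp1 (1.51, q = 0.24) lay over 0.05. In the authors' deposited table of the late comparison, Derl3 had a fold change of 11.3 (q = 1.9e-07) and Edem1 of 2.39 (q = 0.007), while Creld2 (1.77, q = 0.089) and Xbp1 (1.71, q = 0.19) lay over 0.05. The authors' deposited table therefore has Creld2 past 0.05 early and not late, the other way round from the shared fit of 12 libraries. Herpud1 and Derl2 had q of 0.57 to 0.86 in both of the authors' deposited tables.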

How the data were processed

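Polyadenylated RNA of corneal endothelium was sequenced as paired-end reads in 12 libraries, 4 groups of 3 biological replicates. RNA was isolated with TRIzol and made into strand-specific libraries, per the labels' protocols. Per the submitters' processing notes, the build was GRCm39 and the tools were fastp, HISAT2, HTSeq and DESeq2, without versions. The gene annotation, whether counting used strand and whether batches were adjusted are not stated there. Raw whole-number counts and FPKM values of each gene in each library were deposited by the authors. Per the file headers, tables of the authors' comparisons hold a fold (ratio), its log2, a p-value and a q-value, and cover 17745 protein-coding genes early and 16663 late.

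Counts of all genes were fitted once over 12 libraries with edgeR 4.0.16 (R 4.3.3), using the quasi-likelihood test with robust dispersions, TMM scaling and a low-count filter by group (filterByExpr), which left 8 residual degrees of freedom. P-values were adjusted by Benjamini-Hochberg over 17965 genes, at a threshold of 0.05, and the standard error of a log2 fold change was derived from the F statistic. CPM are TMM-scaled and given per library or as mean ± SD. The contrasts were mutant over wild type early, late and as the mean of both stages, the late minus early difference, and late over early within a genotype. Correlations used log2 CPM with a prior count of 2. Whether the replicates came from separate animals is not stated beyond the word biological, so p-values measure the spread between these libraries. Replicates of a group differed by more than sampling noise, with a chi-square per degree of freedom of 48.1 to 237.

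The members and lists were chosen with earlier results of these data known. All 10 genes are described whatever their p, and of each related list up to 4 genes with the smallest late p and 2 with the smallest early p are named. The alternatives were DESeq2 size factors, no low-count filter, at least 5 CPM in 3 libraries, DESeq2 1.42.0, limma-voom with sample weights (limma 3.58.1), a replicate block, fits of only the compared libraries or only protein-coding genes, each library left out in turn, a pair of wild-type libraries (early replicate 2, late replicate 1) left out together, and an offset for gene length, chosen after seeing the data. The fit was also run on simulated data with changes set in genes of at least 5 mean CPM, and no result here rests on that. Promoter windows came from RefSeq (GRCm38.p6), which is not the build of the counts, and were read for their sequence alone.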

Additional observations from a re-analysis of the deposited data

How the results depend on the processing

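All 22 alternatives kept the direction of the late effect of each of the 10 genes. For Derl2 and Herpud1 this says little, as their late log2 fold changes came as near 0 as -0.02 and 0.04. The late call of Derl3 and the calls of Derl3, Edem1 and Creld2 for the mean of both stages held in every alternative. The number of the 10 genes called early was 0, against 2 without a low-count filter, 1 with DESeq2 and 1 with limma-voom, and 0 to 1 with 1 library left out. Late it was 3, against 1 with a replicate block, 5 with both named wild-type libraries left out and 1 to 5 with 1 library left out. For the mean it was 4, against 7 with limma-voom, 6 with the DESeq2 test and 6 with at least 5 CPM in 3 libraries. It was 3 with DESeq2 size factors, a replicate block, protein-coding genes alone or the length offset. It was 7 with both libraries left out and 3 to 7 with 1 left out. Over the same alternatives the calls among all genes ran from 51 to 361 early, 229 to 4371 late and 566 to 3285 for the mean. Same-numbered mutant and wild-type replicates did not deviate together (r of -0.09 to 0.08), so the numbers were not taken as pairs. The block left 1 gene, Derl3, called late, with Edem1 (adjusted p = 0.059) and Creld2 (0.096) lost, and removed Xbp1 from the mean (0.093). Among related genes it removed Dnajb9 early (0.11) and Ddit3 (0.079), Ssr3 (0.073) and Tmub1 (0.079) late. Creld2 was also lost late with DESeq2 size factors (0.055) and with the compared libraries alone (0.12).

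Some log2 fold changes near 0 changed sign, and the cause was not tested. Early, Herpud1 was 0.16 with limma-voom and -0.47 to 0.43 with 1 library left out, and Derl2 -0.55 to 0.09. The Herpud1 mean was -0.04 with protein-coding genes alone, -0.11 with the length offset, -0.21 with both libraries left out and -0.06 to 0.34 with 1 left out. In the late minus early difference, limma-voom gave -0.29 for Derl2, -0.04 for Herpud1, -0.08 for Xbp1 and -0.04 for Creld2, and the stricter filter 0.07 for Sel1l. The length offset gave -0.08 for Derl1, -0.2 for Derl2, -0.18 for Edem1, -0.09 for Syvn1 and -0.05 for Os9. With 1 library left out that difference ran from -0.36 to 0.36 for Derl2, -0.19 to 0.9 for Herpud1, -0.1 to 0.46 for Edem1, -0.19 to 0.08 for Sel1l, -0.2 to 0.44 for Syvn1 and -0.07 to 0.48 for Xbp1. Depth limits Derl3, with 1 to 54 counts in wild-type libraries.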
